A study of Homo sapiens with 4 samples.

Results

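The AP-1 and immediate early transcription factor genes FOS, FOSB, FOSL1, FOSL2, JUN, JUNB, JUND, ATF3 and EGR1 were examined for the histone variant macroH2A1 in IMR90 cells, a line of human fetal lung fibroblasts. These 9 genes were taken by name, each as its annotated gene span with 50 kb of flank on either side, out of 20098 annotated protein-coding genes outside chromosome Y and the mitochondrial genome. The span was assayed over at least 50% of its bases in both replicates for 19507 genes and for 8 of the 9 members. JUND did not reach that share and is described with its shortfall. The series holds 4 samples, 2 macroH2A1 ChIP replicates and 2 matching inputs, all from formaldehyde-crosslinked IMR90 cultures grown with fetal bovine serum, with no added stimulus named in the labels. There was no treatment, genotype or second cell type to compare, and only the ChIP replicates had a file, so no test between groups was made. The labels call the replicates biological, with no account of what separated them. No RNA was measured, so neither the fibroblast label nor the expression of any gene was checked against markers.

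MacroH2A1 is a histone H2A variant that carries a large non-histone macro domain and is known to occupy broad domains of repressed chromatin, including the inactive X chromosome, as well as some regulated genes. AP-1 is a dimer of basic leucine zipper proteins, in which a JUN family protein pairs with itself or with a FOS or ATF family protein and binds promoters and enhancers. Most of the genes examined are induced within minutes by serum, growth factors or stress through MAP kinases that act on SRF, its ELK partners and existing AP-1 proteins, and EGR1, a zinc finger factor, is induced by the same route.

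Each replicate was deposited as a division of the genome into segments, each with a log ratio of ChIP to input, read here as log2, and a −log10 p. A value of 0 means ChIP equal to input on the deposited scale. The log base was inferred: with base 2 the length-weighted mean ratio over the genome was 1.01 in replicate 1 and 0.995 in replicate 2. With base e it was 1.14 and 1.12. Read with base 2, values are relative to a genome average near 0, and those below 0 do not show that macroH2A1 was absent. A gene's value below is the mean log2 ratio over its bases, and ± stands for the SD over the 2 replicates. Enriched segments here are those with a positive log2 ratio and a −log10 p of 2 or more. Among segments with a negative ratio, 68.5% in replicate 1 and 68.6% in replicate 2 had a −log10 p listed as 0. So did each member's start segment with a negative ratio, so that calling such a segment low rests on its ratio and not on a p-value. The segmentation was finer in replicate 1, with 46951 segments of median length 27.4 kb, than in replicate 2, with 25583 segments of median length 53.7 kb. Over all measured genes, the segment holding the start was 52.7 kb long at the median in replicate 1 and 92.3 kb in replicate 2. Most values at a single gene start are therefore values of a much longer stretch. No read counts were used here, so the depth behind each value is unknown and no counting interval is given.

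The sequences just upstream of 5 canonical transcript starts are shown because the segment values at these genes carry the results below. FOSL2 and EGR1 lay in low segments with similar edges in both replicates, and FOS, FOSB and JUN had opposite signs. Each sequence is from the GRCh37 (hg19) genome, read 5′ to 3′ on the gene's strand and counted back from the start of the canonical transcript. The FOS stretch is chr14:75745181-75745480 on the plus strand, and the FOSB stretch is chr19:45970904-45971203 on the plus strand. JUN is at chr1:59249770-59250069 on the minus strand, and EGR1 is at chr5:137800818-137801117 on the plus strand. These 4 stretches are 300 bases long, from 350 to 51 bases before the start. The FOSL2 stretch, chr2:28615412-28615668 on the plus strand, is the 257 bases from 313 to 57 before the start that lie outside its exons. It lies inside the FOSL2 span, whose 5′ end, at 28615315, is the start used for the segment values. Capitals mark matches on either strand to any of 4 motifs: the CArG box bound by SRF, the AP-1 motif TGANTCA, the CRE-like AP-1 and ATF motif TGACNTCA, and the EGR1 motif GCGNGGGCG.
FOS: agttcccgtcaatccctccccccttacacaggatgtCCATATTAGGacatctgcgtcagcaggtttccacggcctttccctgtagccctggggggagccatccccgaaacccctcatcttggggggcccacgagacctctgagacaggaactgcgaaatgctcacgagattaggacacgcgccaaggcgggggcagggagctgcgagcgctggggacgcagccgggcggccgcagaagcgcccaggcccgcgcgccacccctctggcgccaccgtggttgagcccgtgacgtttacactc
FOSB: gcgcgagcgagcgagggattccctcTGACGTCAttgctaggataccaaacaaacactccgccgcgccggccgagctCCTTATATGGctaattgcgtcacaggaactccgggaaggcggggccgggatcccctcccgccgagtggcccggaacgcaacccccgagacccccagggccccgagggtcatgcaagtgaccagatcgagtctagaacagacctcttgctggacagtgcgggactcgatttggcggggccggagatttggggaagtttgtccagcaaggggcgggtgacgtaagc
JUN: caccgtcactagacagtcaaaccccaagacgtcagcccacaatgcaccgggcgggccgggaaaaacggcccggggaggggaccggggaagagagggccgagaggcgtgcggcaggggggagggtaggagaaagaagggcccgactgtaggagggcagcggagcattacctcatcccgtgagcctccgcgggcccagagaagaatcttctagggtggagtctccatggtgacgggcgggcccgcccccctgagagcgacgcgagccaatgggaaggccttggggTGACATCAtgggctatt
EGR1: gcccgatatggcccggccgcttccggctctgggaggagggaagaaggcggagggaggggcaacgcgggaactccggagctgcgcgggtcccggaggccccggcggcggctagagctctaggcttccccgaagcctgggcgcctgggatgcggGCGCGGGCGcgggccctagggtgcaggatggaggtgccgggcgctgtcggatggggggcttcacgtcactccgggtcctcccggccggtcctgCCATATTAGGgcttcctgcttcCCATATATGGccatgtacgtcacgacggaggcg
FOSL2: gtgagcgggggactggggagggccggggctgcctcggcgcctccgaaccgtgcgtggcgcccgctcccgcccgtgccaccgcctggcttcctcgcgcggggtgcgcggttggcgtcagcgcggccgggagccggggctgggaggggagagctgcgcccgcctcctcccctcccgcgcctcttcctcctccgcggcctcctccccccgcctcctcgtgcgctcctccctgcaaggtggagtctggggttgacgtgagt

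In the 500 bases before the canonical start, CArG boxes were found in 3 of the 9 members, and 2.41% of 19371 promoters of the same length held one. EGR1 had 5 of them, FOS had 1, from 314 to 305 bases before its start, and FOSB had 1, from 274 to 265 bases. TGACNTCA was found at FOSB, JUN and JUND, and in 10.8% of promoters. GCGNGGGCG was found at EGR1, FOSB and JUND, and in 15.7% of promoters. TGANTCA was found at none of the 9 members and in 9.60% of promoters. These are matches of letters and not measured binding. The printed FOSL2 stretch has no match to the 4 motifs. It is also the richest in G and C of the printed stretches, at 77.4%, beside 71.3% for EGR1 and 63.3% for FOSB.

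Over the gene spans the 9 members ran from depleted to enriched, and most lay below input. FOSL2 was lowest, followed upward by FOSL1, EGR1, JUND, JUNB, JUN, FOS, FOSB and ATF3. Of the 9 members, 5 lay below 0 in both replicates (FOSL1, FOSL2, JUNB, JUND and EGR1), and 69.7% of measured genes did. ATF3 alone among the members lay above 0 in both, as did 22.8% of measured genes. FOS, FOSB and JUN, 3 of 9, had opposite signs in the replicates, against 7.49% of measured genes. The members' median was -1.13, beside -0.82 over all measured genes. By replicate it was -1.70 and -1.18, beside -0.88 and -0.75. Without JUND, which is not among the measured genes, the members' median was -0.92, close to that of all measured genes. In the order of levels, the replicate ranges of FOSL1 and EGR1 overlapped, and so did those of JUNB and JUN, of JUN and FOS and of FOS and FOSB. The ranges of FOSL2 and FOSL1, of EGR1 and JUND, of JUND and JUNB and of FOSB and ATF3 did not overlap.

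Enriched segments covered at least 50% of the span in both replicates for 1 member, ATF3, and for 19.2% of measured genes. ATF3 was covered over 71.9% of its bases and JUN over 6.77%, and the other 7 members had no base enriched in both replicates. The same held for 13556 of the 19507 measured genes.

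The 50 kb flanks were higher than the gene bodies for several members. The median over the windows of span and flanks was -0.01 for the 9 members and -0.59 for all measured genes. The members' value turned to 0.00997 with 20 kb flanks and to 0.30 without the chromosome 19 members, and moved to -0.43 with 100 kb flanks. The mean of the 2 flanks lay above 0 in both replicates for 4 members, FOS, FOSL2, JUN and ATF3, and for 25.9% of measured genes. FOS, which dimerises with JUN proteins and cannot bind DNA on its own, had the highest window ratio of the 9 at 1.03 ± 0.22. That exceeded 98.8% of measured genes. ATF3, a stress-induced bZIP factor that can repress as a homodimer, followed at 0.94 ± 0.15, above 97.9% of genes. JUN, the founding DNA-binding partner of AP-1, stood at 0.59 ± 0.12, above 93.4%, but at 0.32 with 20 kb flanks and 0.36 with 100 kb flanks. FOSL1 had the lowest window ratio at -1.39 ± 0.19, above only 14.4%. The members lie in shorter genes than most, with a median span of 7.18 kb against 28.1 kb.

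**Figure D1:**
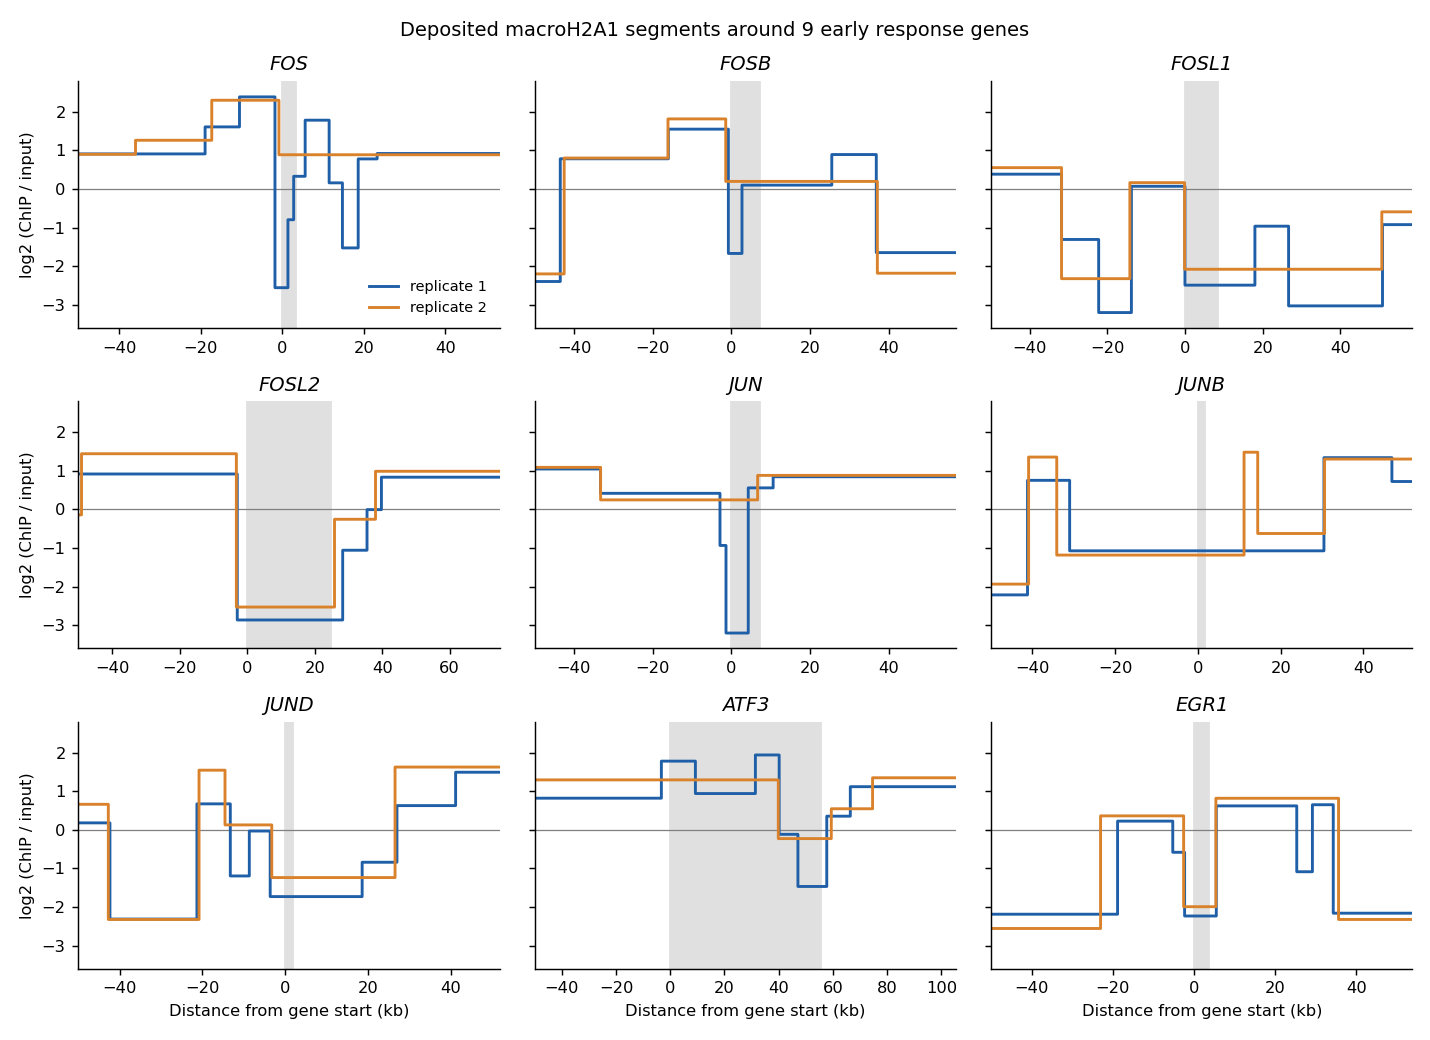
Log2 ratio of ChIP to input (vertical axis) of the deposited segments against distance from the gene start in kb (horizontal axis), 1 panel per member, with a line for each replicate. FOSL2 and EGR1 show a low stretch over the start with edges in nearly the same place in both lines, and at FOS and JUN only the replicate 1 line falls below 0 at the start.

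FOSL2, a FOS family protein lacking the strong activation domain of FOS, had the lowest span ratio of the 9. Its span ratio was -2.86 in replicate 1 and -2.53 in replicate 2, a mean of -2.70 ± 0.24 that exceeded only 1.20% of measured genes. One segment held the whole 24.9 kb gene in each replicate, reaching from 2.93 kb before the start to 28.3 kb after it in replicate 1 and from 3.19 kb before to 25.9 kb after in replicate 2. The upstream edges of the replicates were 264 bases apart and the downstream edges 2419 bases. The segment just upstream stood at 0.92 over 48.4 kb in replicate 1 and at 1.45 over 45.9 kb in replicate 2. Downstream, the ratio was first at or below input, at -1.06 up to 35.5 kb and -0.0038 up to 39.8 kb after the start in replicate 1, and at -0.25 up to 38.0 kb in replicate 2. Enriched segments followed, at 0.84 and 0.99. FOSL2 thus lay in a gene-sized low segment with an enriched segment directly upstream and, after a stretch that was not enriched, another downstream. The mean of its 50 kb flanks was 3.38 ± 0.06 above its start. The 5 kb around its start ranked above 0.633% of measured genes.

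EGR1 lay in a low segment that both replicates placed alike, inside chromatin that was itself mostly low. Its span ratios were -2.23 and -1.99, a mean of -2.11 ± 0.17. The segment over its start ran from 2.29 kb before to 5.51 kb after in replicate 1, and from 2.53 kb before to 5.41 kb after in replicate 2. The edges were 239 bases apart upstream and 100 bases apart downstream, around a gene of 3.83 kb. In the next segment downstream the ratio was 0.62 in replicate 1 and 0.82 in replicate 2. Upstream, the ratio was 0.23 from -18.8 to -5.21 kb in replicate 1, with a −log10 p under the threshold, and 0.36 from -23.0 to -2.53 kb in replicate 2, where it was enriched. Further out, both sides returned to low values, with an upstream segment of 109 kb at -2.19 in replicate 1 and one of 106 kb at -2.56 in replicate 2. EGR1 was therefore low at the gene and in the wider domain, with higher segments between them on both sides.

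The difference between the mean of the 2 flanks and the 5 kb around the start was a measure chosen after the values had been seen. It was at least 1 log2 unit in both replicates for 2 members, FOSL2 and EGR1, and for 14.8% of measured genes. Replicate 1 alone gave 5 members, with FOS, JUN and JUND added, against 21.1% of genes. Replicate 2 alone gave the same 2 members as both together, against 19.9% of genes. FOSL2 was the 1 member whose flanks were above 0 while its start was below 0 in both replicates, a pattern of 8.59% of measured genes. EGR1's difference was 1.10 and 1.11 in the replicates. That of JUND was 1.08 and 0.96.

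**Figure D2:**
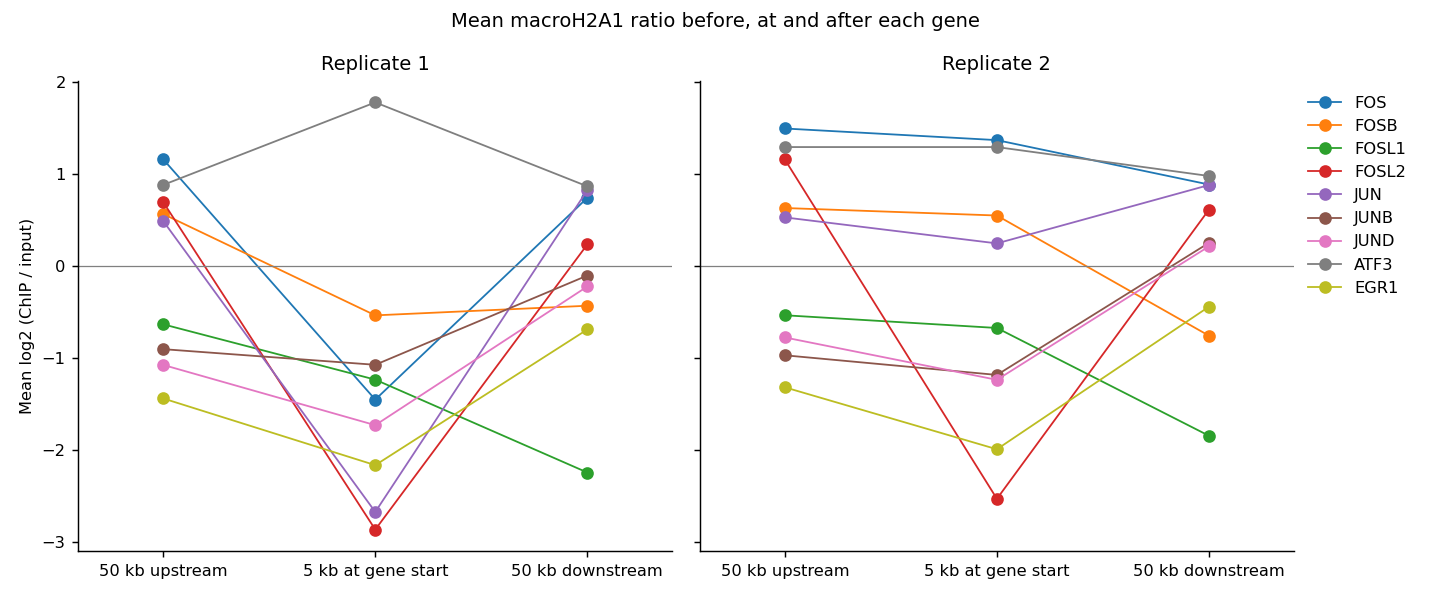
Mean log2 ratio of ChIP to input (vertical axis) in the 50 kb upstream, the 5 kb around the gene start and the 50 kb downstream (horizontal axis), 1 panel per replicate, with 1 line per member. FOSL2 falls from 0.70 and 1.16 upstream to -2.86 and -2.53 at the start, and ATF3 is above 0 at all 3 places.

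At FOS the replicates disagreed in sign. Its span ratio was -1.33 in replicate 1 and 0.89 in replicate 2, a mean of -0.22 ± 1.57, so the level of the gene itself was not resolved. In replicate 1 the start lay in a segment of 3.18 kb at -2.56. The same base in replicate 2 lay in a segment of 149 kb at 0.89, which began 0.79 kb before the start. Averaged over the bases of that long segment, replicate 1 gave 0.78, close to the value of replicate 2. A single replicate 1 segment of 123 kb at 0.92 made up most of that stretch, so the average says little about the start itself. Upstream the replicates were alike: a segment at 2.39 over 8.71 kb in replicate 1 and one at 2.30 over 16.5 kb in replicate 2 ended next to the start. The whole upstream 50 kb averaged 1.16 and 1.50. Replicate 1 held a second low segment, at -1.53, from 14.8 to 18.6 kb after the FOS start, where replicate 2 had no edge.

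JUN gave the same split. Its start lay in a segment of 5.66 kb at -3.20 in replicate 1, the lowest start segment of any member, and in one of 39.9 kb at 0.25 in replicate 2. The latter had a −log10 p of 1.87, under the threshold for enrichment. JUN's span ratio was -1.70 in replicate 1 and 0.29 in replicate 2, a mean of -0.70 ± 1.41. Averaged over the 39.9 kb of that replicate 2 segment, replicate 1 gave -0.14. Its flanks, by contrast, were close in the replicates, at 0.49 and 0.53 upstream and 0.83 and 0.88 downstream. JUN and FOS were the 2 members with no other protein-coding gene inside their windows.

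FOSB, a FOS family member whose truncated isoform accumulates after repeated stimulation, had the same opposite signs with smaller values. Its span ratio was -0.57 in replicate 1 and 0.20 in replicate 2. The start segment stood at -1.67 over 3.46 kb in replicate 1 and at 0.20 over 38.6 kb in replicate 2. Replicate 1 averaged over those 38.6 kb gave 0.19. Just upstream of FOSB both replicates had an enriched segment, at 1.55 over 15.3 kb and at 1.82 over 14.7 kb.

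For the 3 members with opposite signs, the start segment in replicate 2 was longer in each case. It was also longer at FOSL1, JUND, ATF3 and, by little, EGR1, whose signs agreed, and shorter at FOSL2 and JUNB. The median start segment over all measured genes was likewise longer in replicate 2, at 92.3 kb against 52.7 kb, so longer segments there are not particular to the members. Whether the difference in segment length gave the difference in sign was not tested. At the 5 kb around the start the same 3 of 9 members had opposite signs, against 9.38% of measured genes. The 5 kb value was -1.45 and 1.37 at FOS, -2.67 and 0.25 at JUN and -0.53 and 0.55 at FOSB. Below -1 in both replicates lay 4 of 9 members (FOSL2, JUNB, JUND and EGR1) and 34.4% of measured genes. The members' median over these 5 kb was -1.13, against -0.68 for all measured genes. By replicate it was -1.45 against -0.70 in replicate 1 and -0.67 against -0.65 in replicate 2, so replicate 2 alone showed little difference from all genes. Their GC content over the same width, centred on the canonical start, ran from 56.0% at FOSB to 64.9% at JUNB, with a median of 59.1% against 49.6% over 19371 genes. The part of GC content in the start-site values was not tested.

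**Figure D3:**
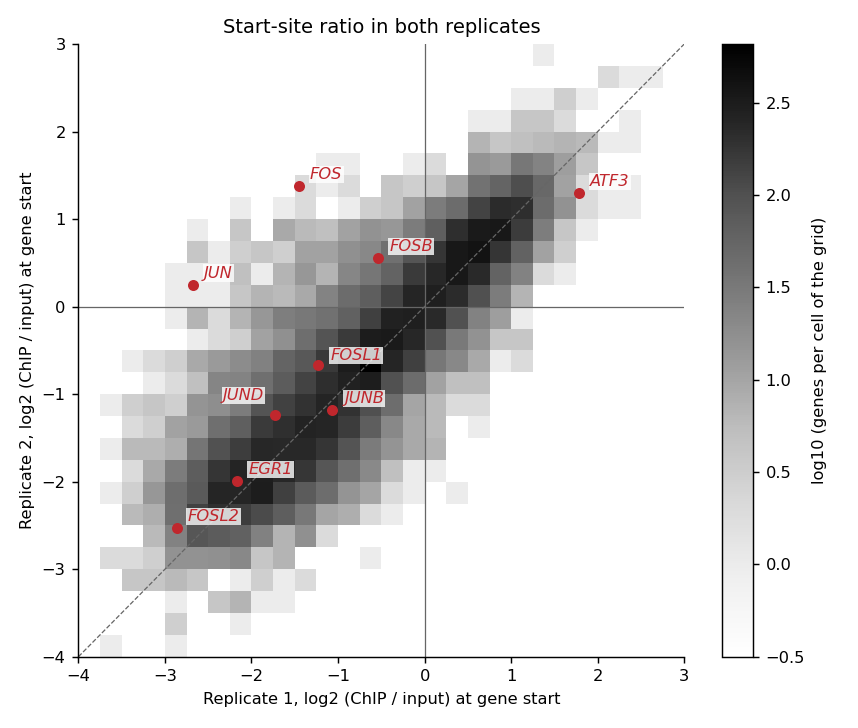
Log2 ratio of ChIP to input over the 5 kb around the gene start in replicate 1 (horizontal axis) and replicate 2 (vertical axis), with shading for the log10 number of measured genes in each cell of the grid and red points for the 9 members. FOS and JUN lie far above the dashed line of equal values, and FOSL2, EGR1, JUNB and ATF3 lie near it.

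FOSL1, also called FRA-1 and known as an AP-1 subunit of motile and transformed cells, lay in a low segment that began almost at its start. The upstream edge was 0.046 kb before the start in replicate 1 and 0.138 kb before it in replicate 2. From there the segment ran through the gene, at -2.49 over 18.0 kb in replicate 1 and at -2.08 over 50.8 kb in replicate 2. Its upstream 50 kb averaged -0.63 and -0.53, and its downstream 50 kb averaged -2.24 and -1.84. The downstream 50 kb of FOSL2, its relative, averaged 0.24 and 0.62.

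JUNB, a JUN protein with weaker activation than JUN, and JUND, the JUN protein usually present in resting cells, lay on chromosome 19 in low segments much longer than the genes. JUNB's start segment stood at -1.07 over 61.4 kb in replicate 1 and at -1.18 over 45.2 kb in replicate 2. With a span of 1.83 kb, JUNB therefore has no value of its own in these files. JUND stood at -1.73 over 22.2 kb and at -1.24 over 29.8 kb. Only 22.3% of JUND's 1.93 kb span lay in blocks of both replicates, and in replicate 2 its start fell between blocks. Both genes had downstream flanks with a mean near 0, at -0.10 and 0.26 for JUNB and at -0.22 and 0.22 for JUND. These means averaged low stretches and enriched segments. Downstream of JUND the enriched segments reached 1.49 in replicate 1 and 1.63 in replicate 2. Downstream of JUNB, one stood at 1.34 from 30.45 kb after the start in replicate 1. Its counterpart in replicate 2 stood at 1.31 from 30.6 kb. Replicate 2 alone had a further enriched segment, at 1.48 over 3.30 kb from 11.1 kb after the JUNB start, where replicate 1 was at -1.07.

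ATF3 was the enriched member, but not along its whole length. Its span of 55.4 kb had ratios of 0.75 and 0.87, a mean of 0.81 ± 0.09 that exceeded 93.7% of measured genes. At the most upstream start the 5 kb value was 1.78 and 1.30, above 99.6% of genes. The canonical start, 43.4 kb further downstream, stood lower at -0.11 in replicate 1 and -0.23 in replicate 2. A further annotated start, 49.7 kb downstream of the first, stood at -1.47 and -0.23. In replicate 1 the low stretch within ATF3 comprised a segment at -0.11 from 40.2 to 47.1 kb and one at -1.47 from 47.1 to 57.7 kb. Replicate 2 had a single segment at -0.23 from 39.8 to 59.4 kb. Both replicates thus placed the change from enriched to low within the gene, ahead of the canonical start, and differed in how low the end of the gene lay.

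Downstream of FOS on chromosome 14 lie JDP2 and BATF, which encode further partners of JUN proteins and can compete with FOS for them. JDP2 stood at -2.01 in replicate 1 and -1.67 in replicate 2 over its span, with no base enriched in both. BATF, which begins 240 kb after the end of FOS, stood at 1.03 and 1.06 and was enriched over 100% of its span. The low segment at JDP2 ran from 148.6 to 202.2 kb after the FOS start in replicate 1 and from 148.4 to 199.1 kb in replicate 2. JDP2 itself runs from 148.9 to 195.3 kb on that scale. JDP2 was thus covered by a low segment of about the gene's size, and unlike at FOS the replicates had the same sign there. Short segments that were not enriched bordered it, at 0.13 upstream in replicate 1 and at 0.24 downstream in replicate 2, with enriched segments beyond. JDP2 was chosen for description after its values were seen.

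**Figure D4:**
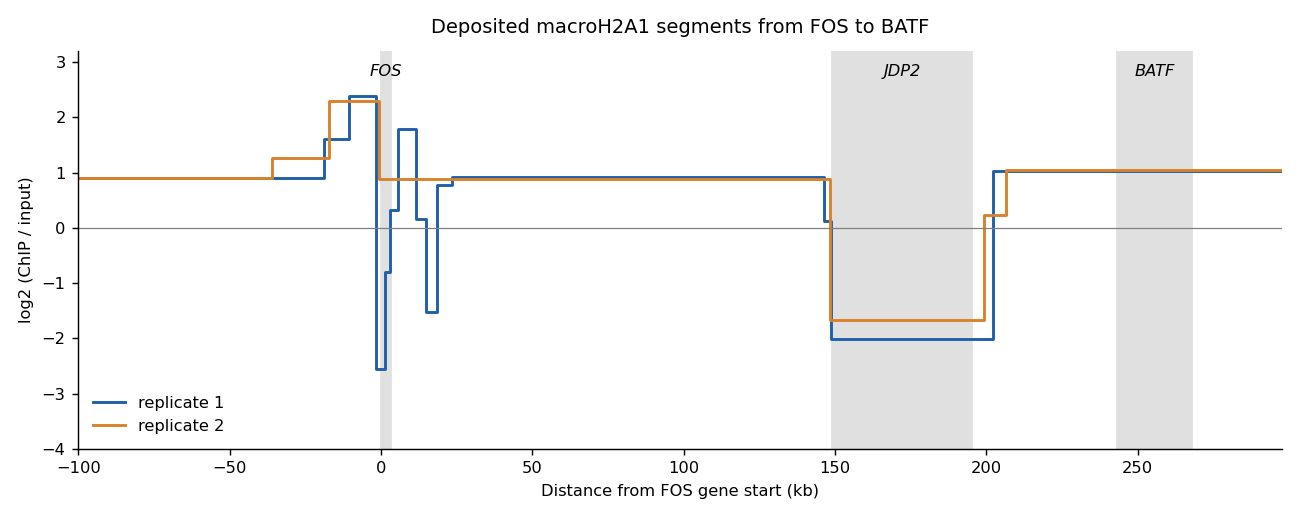
Log2 ratio of ChIP to input (vertical axis) of the deposited segments against distance from the FOS start in kb (horizontal axis), with a line for each replicate and grey bands for the spans of FOS, JDP2 and BATF. Both lines are low over JDP2 and above 1 over BATF, and the replicate 1 line alone drops below 0 at FOS.

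Among 18 other bZIP genes that can pair with or resemble AP-1 proteins, 14 lay below 0 in both replicates, 3 above 0 in both and 1 had opposite signs. Over all measured genes, 69.7%, 22.8% and 7.49% did so. The list's median span ratio was -1.55. BATF was highest at 1.05 ± 0.01 and BATF3, a related factor of immune cells, followed at 0.38 in each replicate. MAFK, a small MAF protein, was lowest at -3.29 ± 0.56, followed by ATF4, the factor of the integrated stress response, at -2.63 ± 0.10.

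Of 25 other immediate early genes, 12 lay below 0 in both replicates and 6 above 0 in both. The remaining 7, or 28%, had opposite signs. The shares over all measured genes were 69.7%, 22.8% and 7.49%. Their median was -0.78 over the mean of replicates, but -1.55 in replicate 1 and 0.14 in replicate 2. RHOB, a small GTPase, was highest at 1.15 ± 0.29, and KLF6, a zinc finger factor, was lowest at -2.65 ± 0.05. SGK1, a serum-induced kinase, stood at 0.91 ± 0.17 and ZFP36, which promotes decay of early response mRNAs, at -2.58 ± 0.36. Among the genes with opposite signs, chosen here after their values were seen, DUSP1, a phosphatase of MAP kinases, stood at -3.29 and 1.01. CCN2, a matricellular protein gene, stood at -2.35 and 0.84.

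The 19 genes of the signalling route to AP-1 and EGR1 had a median of -1.74. Of these, 15 lay below 0 in both replicates, 1 above 0 in both and 3 had opposite signs, beside 69.7%, 22.8% and 7.49% of all measured genes. None was covered over at least 50% of its span in both replicates, as 19.2% of measured genes were. ELK1, a partner of SRF, was highest at 0.43 ± 0.42, and RPS6KA3, a kinase downstream of ERK, followed at 0.10 ± 0.15. Both are on chromosome X. MAP2K2, which activates ERK, was lowest at -3.06 ± 0.19, and SRF itself stood at -2.55 ± 0.30.

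The 16 genes known as targets of AP-1 or EGR1 lay on both sides of 0, with 9 below in both replicates, 7 above in both and none with opposite signs, beside 69.7%, 22.8% and 7.49% of all measured genes. Enriched segments covered at least 50% of the span in both replicates for 7 of them and for 19.2% of measured genes. These 7 are not all separate loci. MMP1 and MMP3, both on chromosome 11, had the same replicate 2 value, 1.16, and TIMP1 is on chromosome X. The matrix metalloproteinase gene MMP3 was highest at 1.31 ± 0.22, followed by PDGFB, a growth factor gene, at 1.23 ± 0.01. CCND1, the cyclin of the G1 phase, was lowest at -2.41 ± 0.39. The median over these target genes was -1.52, and by replicate -1.84 and -0.93.

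**Figure D5:**
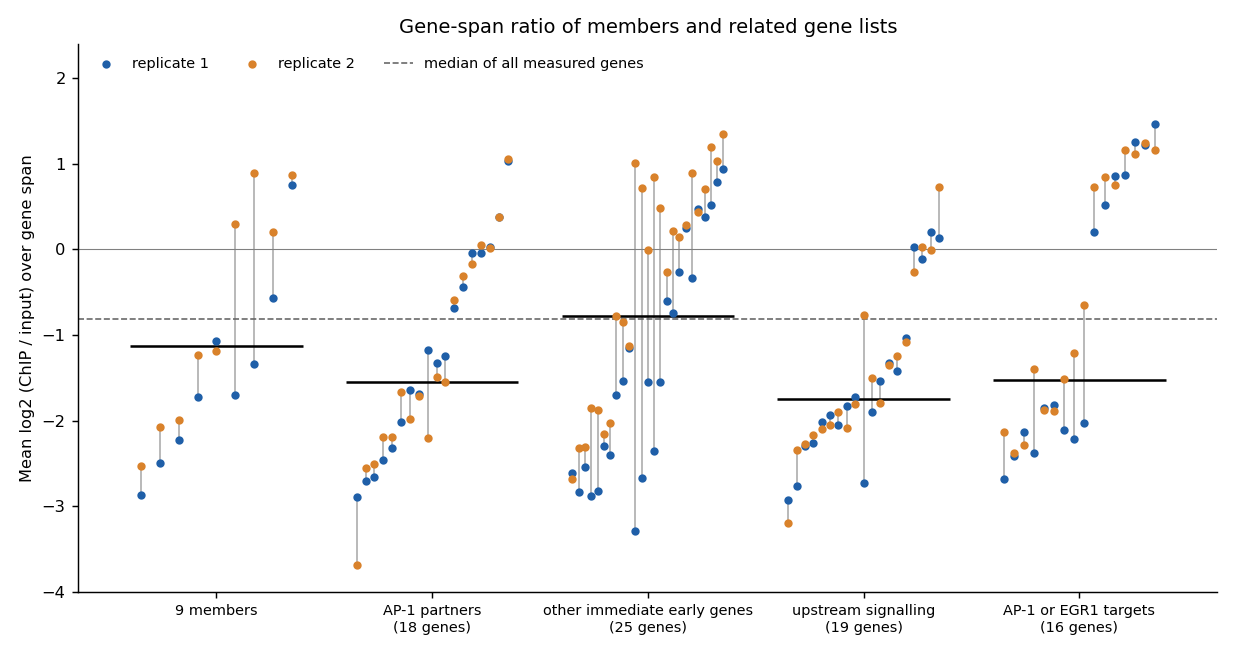
Mean log2 ratio of ChIP to input over the gene span (vertical axis) for the 9 members and 4 gene lists (horizontal axis), with a point per replicate joined by a grey line for each gene, a bar at each list's median and a dashed line at the median of all measured genes. The long grey lines among the members and the other immediate early genes are genes whose replicates differ in sign.

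The other protein-coding genes inside the member windows numbered 32, at 7 of the 9 members. Of these neighbours 19 lay below 0 in both replicates and 11 above 0 in both, beside 69.7% and 22.8% of all measured genes. Next to FOSL2, PLB1 was enriched at 0.83 ± 0.10, and next to ATF3, GARIN4 stood at 0.41 ± 0.08. Around EGR1 all 3 neighbours were low, from KDM3B, a histone demethylase, at -2.37 ± 0.26 to REEP2 at -1.50 ± 0.85. The windows on chromosome 19 were mixed. JUNB's 8 neighbours ran from GET3 at -2.07 ± 0.20 to RTBDN at 1.33 ± 0.03. The 4 around FOSB ran from VASP, an actin regulator, at -1.91 ± 0.38 to PPM1N at 0.41 ± 0.30. JUND's 5 ran from LSM4 at -2.32 ± 0.01 to ENSG00000284797 at 0.94 ± 0.74. FOSL1's 10 neighbours, on chromosome 11, ran from C11orf68 at -2.76 ± 0.62 to TSGA10IP at 0.19 ± 0.06.

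For each member, the gene with the most similar profile was taken as the one with the smallest root mean square difference in log2 ratio over 20 bins of 5 kb around the start, averaged over both replicates, among 19111 genes. Genes starting within 200 kb of a member were left out. ATF3 had the closest match of the 9, ADGRG1 at 0.263. The median difference from ATF3 over all genes was 1.93, but the smallest of so many differences lies below their median by construction. JUN was closest to SOX9 at 0.337 and FOSL2 to NAPA at 0.394. FOS was closest to GAL at 0.491. The other closest genes were STX3 for FOSB at 0.595, PIKFYVE for FOSL1 at 0.611, SPRYD7 for JUNB at 0.671 and VDAC2 for JUND at 0.752. EGR1 had the least similar closest gene, SELENOI at 0.778.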

How the data were processed

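Genomic DNA from 2 macroH2A1 ChIP replicates and 2 inputs was sequenced. CASAVA 1.7 and hg19 are named in the submitters' processing notes. Neither the aligner nor the segmentation program is named in the sources used here. The authors deposited, for each ChIP replicate, segments made of 1 or more blocks, with a log2 ratio of ChIP to input and a −log10 p-value. The log base was inferred, since the length-weighted mean of 2 to the power of the value was 1.01 and 0.995. Depth is unknown without read counts.

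Segment blocks were intersected with GENCODE release 44 spans mapped to GRCh37, and ratios were averaged by base (Python 3.11.15, numpy 2.4.6, pandas 2.3.3, matplotlib 3.10.9). A gene was measured when at least 50% of its span lay in blocks of both replicates. The start is the 5′ end of the span, with 2.5 kb on either side. With 1 group of 2 replicates no test was run. The interval code was tested on simulated data, with 0 mismatches in 200 intervals.

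The members and lists were chosen with earlier results of these data known. Named genes were all members, the highest and lowest neighbour in each window, the 2 highest and 2 lowest of each list, and the gene nearest each member in profile; 1 gene that this rule names is not reported here. JDP2, DUSP1, CCN2, MMP1 and TIMP1 were named after their values were seen. Alternatives were flank width, whole segments, the segment at the start, enrichment thresholds, each replicate left out, and the chromosome 19 members left out.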

Additional observations from a re-analysis of the deposited data

How the results depend on the processing

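With either replicate left out, the members' median ran from -1.70 to -1.18 over the span, from -1.45 to -0.67 around the start and from -0.20 to -0.044 over the window, and the number of members covered ran from 1 to 2. The window median of -0.01 lies close to 0 and changed with its definition: it was -1.48 with the value of the start segment, 0.00997 with 20 kb flanks, -0.43 with 100 kb flanks and 0.30 without the members on chromosome 19. Counting any enriched base in both replicates gave 2 members, ATF3 and JUN. With the start segment's value the FOS window turned to -0.83 and the JUN window to -1.48, and with 20 kb flanks the EGR1 window turned to 0.00997. After the data had been seen, the canonical start was tried and gave a start median of -1.13, and the 8 assayed members alone gave a span median of -0.92. No paired analysis was possible because the inputs had no file and no result comes from a test. Segments were often longer than a gene, so the value of a short gene was often that of a longer stretch. With 2 replicates, FOS, FOSB and JUN have no agreed sign.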
